A study of Mus musculus with 6 samples.

Results

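Rgs2, Rgs4, Rgs6, Rgs7, Rgs8, Rgs10, Rgs14 and Rgs20 encode regulators of G protein signalling (RGS proteins). They were taken by name and are 8 of the 24841 genes in the table of the study, and 8 of its 21 numbered Rgs genes. All 8 were read in every nucleus of 6 single-nucleus RNA libraries made from the dissected, frozen striatum of mice. The wild-type group had 3 libraries and the Celsr3 heterozygous group had 3; Celsr3 encodes an atypical cadherin that guides axons in the developing brain. Each library was labelled as a biological replicate. The labels gave no allele, sex, age, strain or litter for either group, and all 6 libraries shared 1 sequencing lane. P values below therefore measure the spread between libraries, whose source is not described further.

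An RGS protein binds the active, GTP-bound alpha subunit of a heterotrimeric G protein and speeds the hydrolysis of its GTP, which ends the signal of the receptor that switched it on. In the striatum, the dopamine, acetylcholine, adenosine, opioid and glutamate receptors of the spiny projection neurons signal through such G proteins. The family is divided by structure. Rgs6 and Rgs7 belong to the R7 group, whose members are stable only in a complex with the beta subunit Gnb5. Rgs2, Rgs4 and Rgs8 belong to the small R4 group. Rgs10 and Rgs14 belong to the R12 group, and Rgs20 belongs to the RZ group, named for its action on the alpha subunit Gnaz.

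The libraries held 7735 to 8875 nuclei, and 2 libraries shared between 11 and 29 cell barcodes. A total of 800 nuclei (1.64%) were left out as likely doublets by their doublet score, which left 48034. Of these, 40575 fell into 18 classes named "X-like" from marker genes, 7459 stayed unnamed, and 14 classes had at least 20 nuclei in every library. No Rgs gene was used for clustering, so the 8 genes did not shape the classes. The median number of genes detected per nucleus ranged over libraries from 2435, in wild-type replicate 1, to 3001. Celsr3 was lower in every heterozygous library: in nuclei resembling spiny projection neurons of the direct pathway (D1 MSN-like) it was at 0.148, 0.171 and 0.179 per nucleus in the wild type and at 0.0787, 0.102 and 0.101 in the heterozygotes (limma adjusted p = 0.146). Values are the mean per nucleus of a depth-corrected UMI value, called the level below. Levels are compared between classes and libraries but never between genes, since the genes run from 4.82 kb (Rgs2) to 573.8 kb (Rgs6) and long genes can collect more reads in nuclear RNA. The annotation marks Rgs6, Rgs10 and Rgs20 as overlapping another locus; strand use in counting is not given in the sources used here, so reads from an overlapping transcript cannot be told apart for these genes.

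RNA that drifts between nuclei sets a floor for these levels. Markers shared by spiny projection neurons stood in oligodendrocyte-like nuclei, which should lack them, at a median of 30.3% of their D1 MSN-like level (range 11.2% to 82.8% over 8 markers). In astrocyte-like nuclei the median was 22.8%, and in microglia-like nuclei it was 36.6%. Outside the spiny neuron classes, a level at or below the marker median of its class is not read as expression. These markers gauge drift from spiny neurons only, and drift from other classes was not measured. The floor is thus a partial guide for members that peak elsewhere, such as Rgs6, Rgs7, Rgs10 and Rgs20. Every class level quoted is a mean ± SD over 6 libraries unless another n is given, and 2 neighbouring classes are called apart only where the ranges of their libraries do not overlap. The plot of levels by class shows all values.

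**Figure D1:**
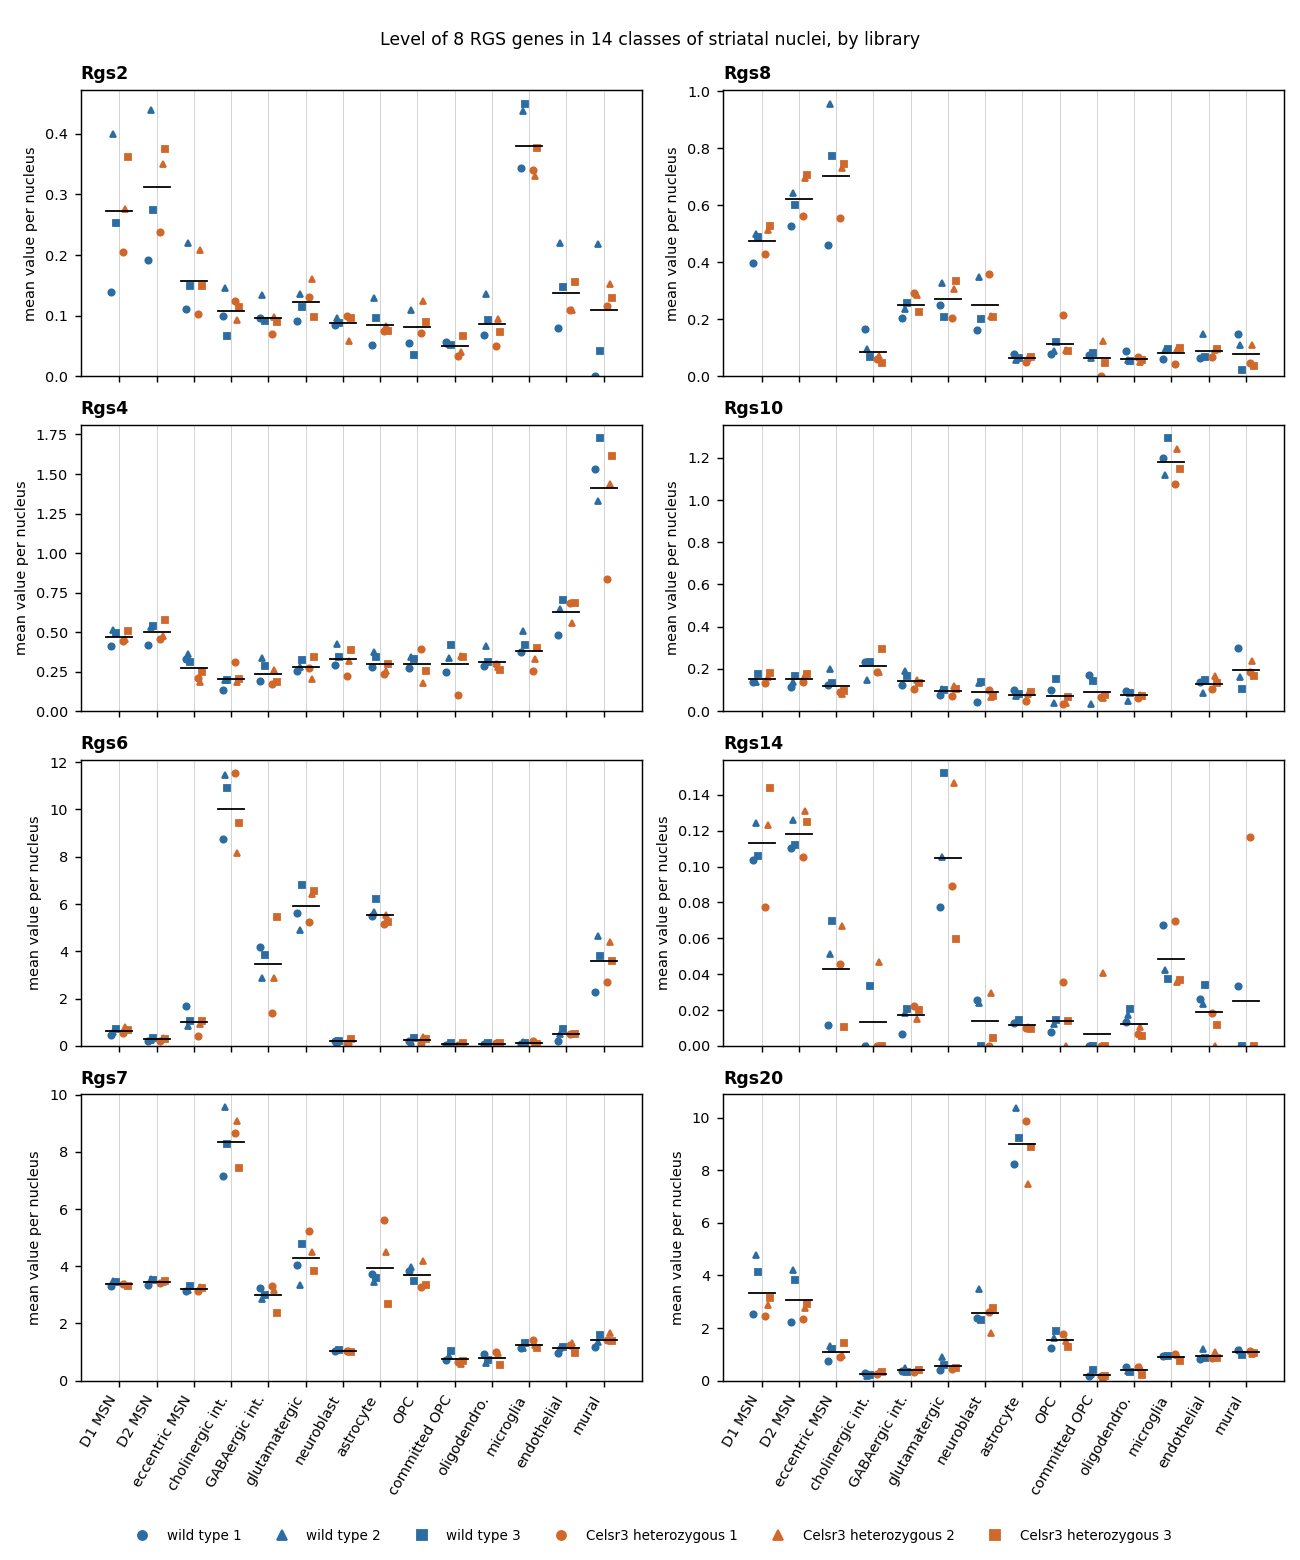
Mean value per nucleus (y axis, starting at 0 and scaled for each gene) of the 8 RGS genes in 14 classes of nuclei (x axis). Each point is 1 library, wild type in blue and Celsr3 heterozygous in orange, and the black bar is the mean of 6 libraries. Rgs10 stands at 1.18 in microglia-like nuclei and at 0.214 or less in every other class, and Rgs20 is highest in astrocyte-like nuclei, at 9.01.

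Rgs6, an R7 protein that acts on Gi/o alpha subunits, lies on chromosome 12 (mm10, 82588292 to 83162056, plus strand). It was highest in cholinergic interneuron-like nuclei, at 10.0 ± 1.5, and its libraries (8.14 to 11.5) all lay above those of the next class. The cholinergic interneuron-like class was small, with 30 to 44 nuclei per library. Glutamatergic neuron-like nuclei followed at 5.93 ± 0.78 and astrocyte-like nuclei at 5.55 ± 0.37, and the ranges of these classes overlapped. Mural-like nuclei came next at 3.57 ± 0.92, below every astrocyte-like library, and overlapped with GABAergic interneuron-like nuclei at 3.44 ± 1.38. Spiny neurons held far less: the eccentric MSN-like class was at 0.999 ± 0.408, the D1 MSN-like class at 0.625 ± 0.131 and the D2 MSN-like class, of the indirect pathway, at 0.273 ± 0.053. Endothelial-like nuclei lay between the last 2, at 0.490. The remaining classes were at 0.241 or lower, down to 0.0718 in committed oligodendrocyte precursor-like nuclei. Mature oligodendrocyte-like nuclei stood at 0.101, 16.1% of the D1 MSN-like level and so within background.

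Rgs6 varied among the libraries of GABAergic interneuron-like nuclei. They were at 4.20, 2.86 and 3.86 in the wild type and at 1.40, 2.89 and 5.45 in the heterozygotes. Cluster 30, 1 of the 5 clusters of this class, was at 11.99 ± 1.94 over the 5 libraries with at least 20 of its nuclei. Its share of the class was 30.4%, 16.7% and 18.1% in wild-type replicates 1 to 3, and 0%, 28.0% and 33.8% in heterozygous replicates 1 to 3. The lowest and the highest library for Rgs6 were also those for this share, but heterozygous replicate 2, with the third highest share, had the third lowest Rgs6. The unnamed cluster 22 (698 nuclei), whose leading genes included the transcription factors Lhx9, Lef1 and Shox2, had a still wider range, from 4.86 to 25.8 over 5 libraries, and was also short of nuclei in heterozygous replicate 1. The part of cluster shares in the class level was not tested.

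Rgs7, the second R7 member, lies on chromosome 1 (mm10, 175059087 to 175492500, minus strand) and can be anchored at the membrane by Rgs7bp or by the orphan receptor Gpr158. Like Rgs6 it was highest in cholinergic interneuron-like nuclei, at 8.36 ± 0.93, with every library (7.17 to 9.56) above every library of the next class. Unlike Rgs6 it was broad among neurons. Glutamatergic neuron-like (4.29), astrocyte-like (3.92), oligodendrocyte precursor (OPC)-like (3.69), D2 MSN-like (3.46), D1 MSN-like (3.39), eccentric MSN-like (3.21) and GABAergic interneuron-like nuclei (3.00) formed a run in which no neighbours were apart. A gap followed, since every GABAergic interneuron-like library lay above every mural-like one (1.43 ± 0.18). Microglia-like, endothelial-like, neuroblast-like, oligodendrocyte-like and committed oligodendrocyte precursor-like nuclei were at 1.24 down to 0.757. Of these and the mural-like class, all but the committed oligodendrocyte precursor-like were at or below the median share of the spiny neuron markers (23.7% of the D1 MSN-like level in oligodendrocyte-like and 36.5% in microglia-like nuclei), and so within background. The libraries agreed closely in the spiny neurons, where the D1 MSN-like level had an SD of 0.078 and the D2 MSN-like level one of 0.075.

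Astrocyte-like nuclei had the widest spread for Rgs7, with an SD of 1.01, followed by cholinergic interneuron-like nuclei with an SD of 0.93. The wild-type libraries were at 3.74, 3.46 and 3.58, and the heterozygous ones at 5.61, 4.49 and 2.68, so that the heterozygous libraries lay on both sides of the wild type. Within the class, cluster 3 was at 5.03 ± 1.02 for Rgs7, cluster 8 at 2.57 ± 0.57 and cluster 18 at 2.24 ± 0.34. The share of cluster 3 was 46.0%, 62.9% and 56.8% in wild-type replicates 1 to 3, and 82.7%, 46.9% and 43.0% in heterozygous replicates 1 to 3. The libraries with the highest and the lowest Rgs7 also had the highest and the lowest share, but wild-type replicate 2, with the second highest share, had the second lowest Rgs7. The part of cluster shares in this spread was not tested.

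Rgs2, an R4 protein that prefers Gq alpha subunits and is known as a gene induced by cell activity, lies on chromosome 1 (mm10, 143999338 to 144004161, minus strand). Its highest level was in microglia-like nuclei, at 0.380 ± 0.052, followed by D2 MSN-like at 0.311 ± 0.093 and D1 MSN-like nuclei at 0.272 ± 0.096. These classes overlapped. The eccentric MSN-like level was 0.157 ± 0.049, and the other 10 classes ran from 0.137 (endothelial-like) to 0.0503 (committed oligodendrocyte precursor-like) with no neighbours apart. Oligodendrocyte-like and astrocyte-like nuclei were at 31.4% and 31.1% of the D1 MSN-like level, above the median share of the spiny neuron markers in each class (30.3% and 22.8%) but inside the range of those markers.

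Rgs2 varied more between libraries of 1 genotype than the other R4 members. In D1 MSN-like nuclei the wild-type libraries were at 0.140, 0.399 and 0.253 and the heterozygous ones at 0.205, 0.276 and 0.361. In D2 MSN-like nuclei they were at 0.191, 0.440 and 0.275, and at 0.238, 0.350 and 0.374. Wild-type replicate 1 was the lowest library and wild-type replicate 2 the highest in both classes, so the heterozygous values lay inside the wild-type range.

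This order of libraries resembled that of the immediate early genes, a list of 14 genes that neurons switch on within minutes of activity (among them Fos, Junb, Egr1, Arc, Npas4 and Nr4a1). Their level summed over the list, per D1 MSN-like nucleus, was 0.797, 1.78 and 1.15 for wild-type replicates 1 to 3 and 1.11, 1.58 and 1.82 for the heterozygous replicates. Per D2 MSN-like nucleus it was 0.885, 1.78 and 1.32, then 1.28, 1.95 and 1.85. Each of the 8 members was correlated with this sum over the 6 libraries in both classes, which made 16 relations, tested by exact two-sided permutation of the pairings. The same was done for every gene tested in a class and outside the list, and the p of Pearson's r was adjusted over all of them. That of Spearman's rho is unadjusted. No gene passed after adjustment, 0 of 13425 in the D1 MSN-like and 0 of 12731 in the D2 MSN-like class. The pairings of 6 libraries are few, so the exact p has a floor that a single gene cannot bring past this adjustment. The adjusted p therefore cannot decide whether a relation exists, and these relations are a description of 6 libraries. At an unadjusted p under 0.05, 3 of the 8 members stood in each class, Rgs2, Rgs8 and Rgs14, all with a positive r. Of all genes, 8.66% stood there for the D1 MSN-like class (6.7% with a positive r) and 9.33% for the D2 MSN-like class (7.32% with a positive r).

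For Rgs2 in D1 MSN-like nuclei, Pearson's r was 0.953 (exact p = 0.00278, adjusted p = 0.460; Spearman rho = 0.943, exact p = 0.0167), and 0.514% of genes had an r as high. Without the 2 libraries farthest from the median sum, r was 0.895. In D2 MSN-like nuclei r was 0.890 (exact p = 0.0319, adjusted p = 0.498; rho = 0.771, exact p = 0.103), and 0.915 without the 2 farthest libraries, and 3.02% of genes had an r as high. The widest gap in the sum lay between the 3 lowest and the 3 highest libraries, each set holding both genotypes.

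Rgs8, another R4 protein, acts on Gi/o and Gq alpha subunits and lies on chromosome 1 (mm10, 153653025 to 153700323, plus strand). In D2 MSN-like nuclei its r with the sum was 0.961 (exact p = 0.00278, adjusted p = 0.448; rho = 0.943, exact p = 0.0167), and 0.918 without the 2 farthest libraries, and 0.377% of genes had an r as high. In D1 MSN-like nuclei r was 0.894 (exact p = 0.00833, adjusted p = 0.516; rho = 0.943, exact p = 0.0167) and 0.703 without the farthest libraries, and 2.56% of genes had an r as high. Rgs14 had r = 0.781 (exact p = 0.0486, adjusted p = 0.561; rho = 0.943, exact p = 0.0167) in the D1 MSN-like class and r = 0.886 (exact p = 0.0361, adjusted p = 0.498; rho = 0.886, exact p = 0.0333) in the other. The members share libraries, and so do the classes. The median number of genes per D1 MSN-like nucleus, 3398.5, 3343 and 3323 in the wild type and 3278, 3501 and 3485 in the heterozygotes, did not follow the same order, and its part in the relation was not tested.

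**Figure D2:**
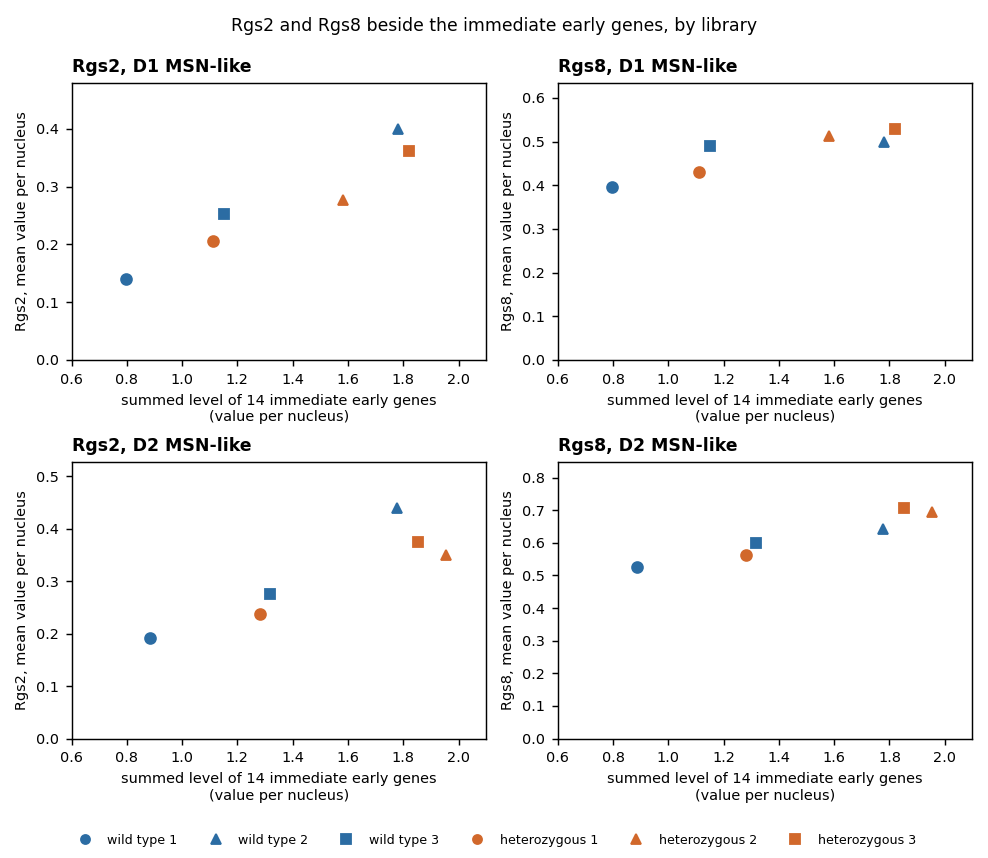
Mean value per nucleus of Rgs2 (left) and Rgs8 (right) on the y axis against the summed level of 14 immediate early genes on the x axis, in D1 MSN-like (top) and D2 MSN-like nuclei (bottom). Each point is 1 library. Wild-type replicate 1 is lowest on both axes in all 4 panels, and the order of libraries mixes the genotypes (r from 0.890 to 0.961).

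The stretches before the start sites of Rgs2 and Rgs8, the members with the highest r, are shown because many activity-induced genes carry a cyclic AMP response element (CRE) there. They were taken from RefSeq (GRCm38.p6, the build of mm10) and end at the base before the first annotated transcript base. Rgs2 is chr1:144004162-144004399 on the minus strand, and Rgs8 is chr1:153652787-153653024 on the plus strand, the first of its 3 listed starts and the only one with a core before it. Capitals mark the CRE core, CGTCA or its reverse complement TGACG.
Rgs2: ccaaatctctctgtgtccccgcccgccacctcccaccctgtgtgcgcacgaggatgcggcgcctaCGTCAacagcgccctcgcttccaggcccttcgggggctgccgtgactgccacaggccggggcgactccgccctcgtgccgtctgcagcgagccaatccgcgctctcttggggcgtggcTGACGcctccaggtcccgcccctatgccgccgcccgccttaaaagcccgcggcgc
Rgs8: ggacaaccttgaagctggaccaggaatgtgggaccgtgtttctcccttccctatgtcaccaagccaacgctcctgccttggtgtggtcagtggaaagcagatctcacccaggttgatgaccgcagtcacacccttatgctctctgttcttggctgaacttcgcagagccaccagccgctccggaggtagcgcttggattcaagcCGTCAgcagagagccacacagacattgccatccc
The Rgs2 stretch held 2 cores and the Rgs8 stretch held 1, and neither held the full element TGACGTCA. On either strand, a core was present in 16.7% of windows of the same length, 238 bases, before 32851 listed mouse starts and the full element in 1.42%. These shares count single windows, whereas the Rgs8 window shown is the 1 of its 3 with a core, so the Rgs8 match cannot be read against them. Rgs14 and Rgs20 had no listed start, so Rgs14 could not be examined beside Rgs2 and Rgs8. Of the members with a listed start, Rgs4 also had a core in its window of 250 bases. Rgs6, Rgs7, Rgs10 and the other starts of Rgs8 had none. These matches describe the letters in the window and say nothing of binding.

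By class, Rgs8 was highest in the spiny neurons. The eccentric MSN-like class was at 0.703 ± 0.174, the D2 MSN-like class at 0.622 ± 0.072 and the D1 MSN-like class at 0.476 ± 0.051, and every D1 MSN-like library (0.396 to 0.528) lay above every library of the next class, glutamatergic neuron-like (0.272 ± 0.058). GABAergic interneuron-like and neuroblast-like nuclei were close behind, neuroblast-like nuclei at 0.249. All other classes were at 0.114 or lower. Astrocyte-like nuclei were at 13.5% of the D1 MSN-like level, within background.

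Rgs4, an R4 protein that limits signalling by muscarinic, dopamine and metabotropic glutamate receptors, lies on chromosome 1 (mm10, 169741477 to 169747642, minus strand). Its peak was outside the neurons. Mural-like nuclei, the pericytes and smooth muscle cells of vessel walls, numbered only 43 to 60 per library. They were at 1.41 ± 0.31, and each of their libraries (0.837 to 1.73) was above each endothelial-like library (0.625 ± 0.088). D2 MSN-like (0.499 ± 0.058) and D1 MSN-like nuclei (0.471 ± 0.040) came next. The other 10 classes fell in a narrow band from 0.380 (microglia-like) to 0.205 (cholinergic interneuron-like), with no neighbours apart. Glial levels were high relative to the spiny neurons: 65.5% of the D1 MSN-like level in oligodendrocyte-like and 80.7% in microglia-like nuclei, inside the range of the spiny neuron markers there but above their median.

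Rgs10, an R12 protein known as a brake on inflammatory activation of microglia, lies on chromosome 7 (mm10, 128373621 to 128418758, minus strand). Its highest level was in microglia. Microglia-like nuclei were at 1.20, 1.12 and 1.29 in the wild type and 1.08, 1.24 and 1.15 in the heterozygotes, 5.52 times the mean of the next class, cholinergic interneuron-like (0.214 ± 0.052). Both microglia-like clusters kept after doublets were removed held it, cluster 7 at 1.29 ± 0.09 and cluster 20 at 0.989 ± 0.219. The D1 MSN-like (0.154 ± 0.020) and D2 MSN-like levels (0.151 ± 0.025) did not stand apart, and the lowest class was OPC-like at 0.0721.

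Rgs14, the other R12 member, combines an RGS domain with a GoLoco motif that binds inactive Gi alpha subunits, and is best known from hippocampal area CA2. It lies on chromosome 13 (mm10, 55369732 to 55384687, plus strand). It was high enough to be tested by genotype in 3 of the 14 classes. D2 MSN-like (0.118 ± 0.010), D1 MSN-like (0.113 ± 0.023) and glutamatergic neuron-like nuclei (0.105 ± 0.037) formed the top 3, and microglia-like (0.0482) and eccentric MSN-like nuclei (0.0427) followed. The other 9 classes were at 0.0249 or lower, and 6 of them had at least 1 library at 0. Astrocyte-like and oligodendrocyte-like nuclei were at 10.4% and 10.9% of the D1 MSN-like level, which is background.

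Rgs20, an RZ protein that acts on the Gz and Gi alpha subunits, lies on chromosome 1 (mm10, 4909576 to 5070285, minus strand). It was highest in astrocyte-like nuclei, at 8.23, 10.4 and 9.24 in the wild type and 9.87, 7.47 and 8.87 in the heterozygotes, 2.71 times the mean of the next class. D1 MSN-like nuclei followed at 3.32 ± 0.94, D2 MSN-like at 3.05 ± 0.80 and neuroblast-like at 2.56 ± 0.55. OPC-like nuclei were at 1.55 ± 0.26 and eccentric MSN-like nuclei at 1.10 ± 0.26, although the latter carry spiny neuron markers. GABAergic interneuron-like nuclei were at 0.393 and cholinergic interneuron-like nuclei at 0.270, and the lowest class was committed oligodendrocyte precursor-like at 0.212. These 3 classes, and the glutamatergic neuron-like, oligodendrocyte-like, microglia-like, endothelial-like and mural-like ones, were below the median share of the spiny neuron markers, within background. The astrocyte-like clusters differed: clusters 18 and 3 were at 10.6 ± 1.0 and 10.4 ± 0.8, and cluster 8, whose leading genes included Agt and Slc6a11, was at 5.34 ± 0.55.

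The genes with the most similar profile over the 14 classes, outside the Rgs family, were found by correlating log2 class means of the wild-type libraries over 5751 genes. The points share libraries and drifting RNA, so the values of r are a description over 14 classes. For Rgs20 they were Slc4a4 (0.92), Rfx3 (0.92) and Gli3 (0.90). For Rgs10 they were Lysmd4 (0.96), Pik3ap1 (0.95) and 4930469K13Rik (0.95), and for Rgs8 they were Gm15810, Atxn3 and Tll1 (all 0.95). For Rgs7 they were Prr16 (0.94), Snx14 (0.91) and Ocrl (0.91), for Rgs6 Gm29530 (0.90), Mical2 (0.87) and Hk1 (0.86), and for Rgs14 Ptk2b (0.91), Camkk2 (0.91) and Icam5 (0.90). For Rgs4 they were Carmn (0.87), Higd1b (0.86) and Tbx2 (0.86), and for Rgs2 Otulinl (0.88), Foxo3 (0.86) and Ccm2 (0.86). Among the members themselves, Rgs2 and Rgs14 (0.78), Rgs8 and Rgs14 (0.69) and Rgs6 and Rgs7 (0.69) were the most alike, and Rgs4 and Rgs7 were the least (-0.44).

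The D1 MSN-like and D2 MSN-like classes allow a comparison of the pathways within each library, since both were prepared together. Over all genes tested in both classes, 36.3% differed (limma, adjusted p under 0.05), with 27.9% higher in D1 MSN-like and 8.4% lower. Of the 8 members, 4 passed, 2 in each direction. Rgs6 and Rgs20 were higher in D1 MSN-like nuclei, and Rgs8 and Rgs2 were lower.

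Rgs6 had the largest difference. Its D1 MSN-like levels were 0.441, 0.578 and 0.724 in the wild type and 0.536, 0.797 and 0.673 in the heterozygotes, against D2 MSN-like levels of 0.222, 0.230 and 0.322, and 0.224, 0.337 and 0.304. Every D1 MSN-like library was above every D2 MSN-like library, and the log2 difference was 1.16 ± 0.04 (SE; limma adjusted p = 6.67e-16; higher in 6 of 6 libraries). The classes were not uniform in Rgs6. Cluster 14 of the D1 MSN-like class (1135 nuclei), led by Dlk1, Drd3 and Pdyn, was at 2.26 ± 0.57, whereas clusters 0 and 11 were at 0.419 ± 0.063 and 0.200 ± 0.041. Among D2 MSN-like nuclei, cluster 6, led by P2ry1, Calcr and Htr4, was at 0.692 ± 0.176, and clusters 2 and 9 were at 0.138 ± 0.020 and 0.082 ± 0.032. Clusters 2 and 9, which held most of the D2 MSN-like nuclei, were near the oligodendrocyte-like (0.101) and microglia-like levels (0.135), which were within background. The log2 difference therefore sets the D1 MSN-like class against a level that may be background outside cluster 6. With cluster 14 left out, an alternative chosen after these values were seen, the difference was 0.48 (limma adjusted p = 7.09e-08). This took the Rgs6-high cluster from the D1 MSN-like class only, while cluster 6 stayed in the D2 MSN-like class.

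The same clusters were high in Rgs14. Cluster 14 was at 0.177 ± 0.059 and cluster 6 at 0.180 ± 0.036, against 0.110 in cluster 0, 0.107 in cluster 2, 0.0724 in cluster 11 and 0.068 in cluster 9. For Rgs20, cluster 14 had the lowest mean of the D1 MSN-like clusters, at 2.84 ± 0.65, within the spread of the others (3.38 ± 1.01 in cluster 0 and 3.46 ± 0.79 in cluster 11). These cluster levels are a description, with no test. Cluster 14 made up 9.85% to 20.8% of the D1 MSN-like nuclei of a library, most in heterozygous replicate 2, and cluster 6 made up 20.6% to 35.2% of the D2 MSN-like nuclei, most in wild-type replicate 1.

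**Figure D3:**
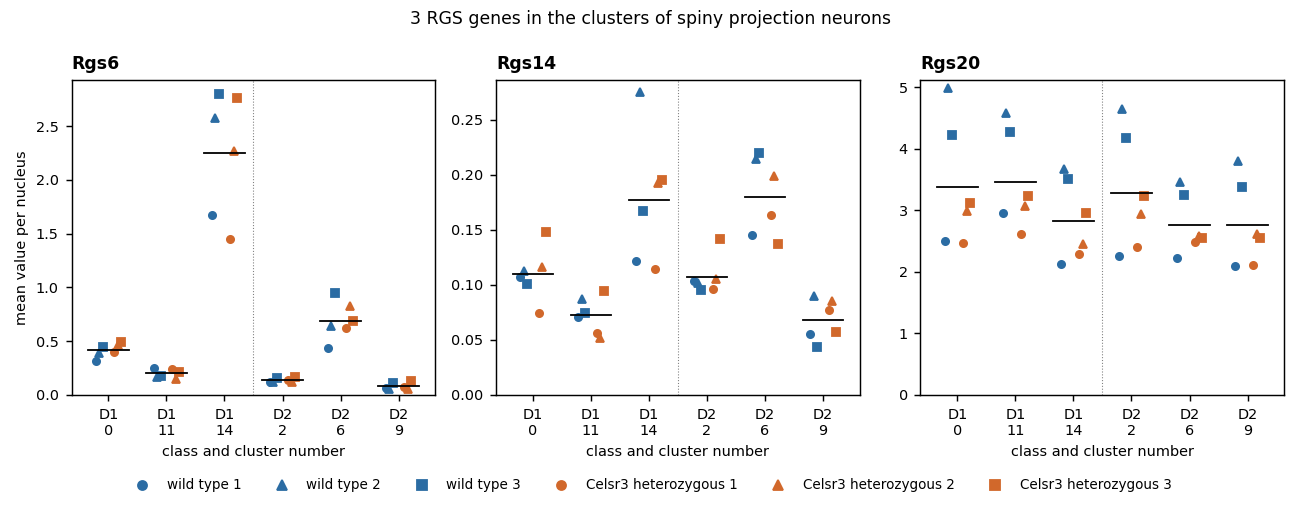
Mean value per nucleus (y axis, starting at 0) of Rgs6, Rgs14 and Rgs20 in the 3 clusters of the D1 MSN-like and the 3 of the D2 MSN-like class (x axis). Points are libraries and bars are means of 6 libraries. Rgs6 is at 2.26 in cluster 14 and 0.692 in cluster 6, above the other clusters of their class, and Rgs20 is high in wild-type replicates 2 and 3 in all 6 clusters.

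Rgs8 was lower in D1 MSN-like nuclei in 6 of 6 libraries, by 0.38 on the log2 scale. The D1 MSN-like levels were 0.396, 0.499 and 0.490 in the wild type and 0.430, 0.513 and 0.528 in the heterozygotes. The D2 MSN-like levels were 0.526, 0.641 and 0.600, and 0.564, 0.695 and 0.707 (log2 difference -0.38 ± 0.03, limma adjusted p = 2.28e-09).

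Rgs2 was also lower in D1 MSN-like nuclei in 6 of 6 libraries, although the spread between libraries exceeded the difference (-0.21 ± 0.05, limma adjusted p = 0.00182). Of the 10 immediate early genes tested, Egr1, Arc and Nr4a1 were lower in D1 MSN-like nuclei as well, at -0.14, -0.28 and -0.40, and none was higher. These were 3 of the 10 tested, with a list median of -0.14 against 0.07 over all genes. Rgs20 was 9% higher in D1 MSN-like nuclei by its mean (1.09-fold; 0.12 ± 0.02 on the log2 scale, limma adjusted p = 5.87e-05; higher in 6 of 6 libraries), where the median over all genes was 0.07 in the same direction.

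Rgs4 and Rgs7 were each lower in D1 MSN-like nuclei in 6 of 6 libraries but did not pass, with log2 differences of -0.08 ± 0.03 (limma adjusted p = 0.0767) and -0.03 ± 0.02 (adjusted p = 0.192). Rgs4 passed when the clusters of each class were weighted equally (-0.13, adjusted p = 0.020), another alternative chosen after the data were seen. Rgs14 did not pass (-0.08 ± 0.07, limma adjusted p = 0.393). With cluster 14 left out it stood at -0.20 (limma adjusted p = 0.0494), but this took Rgs14-high nuclei from the D1 MSN-like class only. Cluster 6, as high in Rgs14, stayed in the D2 MSN-like class. A lower D1 MSN-like value was thus built in, and no difference is read from it. Rgs10 was on both sides (0.03 ± 0.06, adjusted p = 0.679; higher in 3 of 6 libraries).

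**Figure D4:**
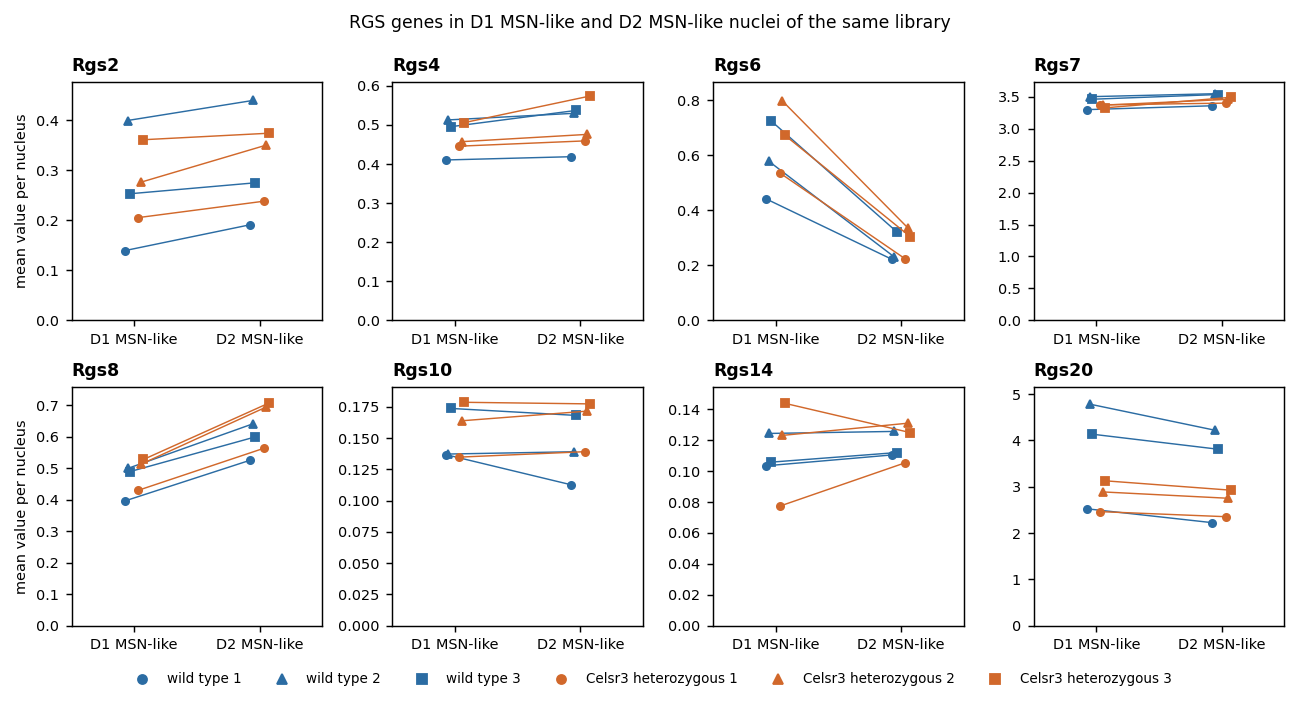
Mean value per nucleus (y axis, starting at 0) of each RGS gene in the D1 MSN-like and the D2 MSN-like class (x axis). A line joins the classes of 1 library, wild type in blue and Celsr3 heterozygous in orange. All 6 lines fall from D1 to D2 for Rgs6 and Rgs20, and all 6 rise for Rgs2, Rgs4, Rgs7 and Rgs8.

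Genes that work with the members were read from fixed lists in the same comparison. Of the R7 complex partners, the 3 tested were all lower in D1 MSN-like nuclei: Gnb5, the obligate partner of Rgs6 and Rgs7, at -0.48, and the anchors Rgs7bp and Gpr158 at -0.21 each (limma adjusted p = 8.52e-12, 2.37e-09 and 6.09e-09). Rgs6 was higher in the same nuclei, and Rgs7 did not pass. The list had a median of -0.21, against 0.07 over all genes. Of the other numbered Rgs genes, 4 of 13 were tested and 2 passed in each direction: Rgs11 (0.13) and Rgs17 (0.15) were higher, and Rgs9 (-0.07) and Rgs12 (-0.29) were lower. Rgs9 is an R7 member known for ending dopamine and opioid receptor signals in the striatum.

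Of 11 G alpha subunits tested, 5 were higher in D1 MSN-like nuclei and 3 were lower, where 27.9% and 8.4% of all genes were. The list had a median of 0.02, against 0.07 over all genes. Gnai1 (0.64), Gnaz (0.69), Gna12 (0.19), Gna13 (0.14) and Gnaq (0.07) were higher, though Gnaq differed no more than the median gene. Gnao1 (-0.42), Gnal (-0.17), the alpha subunit by which D1 and A2a receptors raise cyclic AMP, and Gnas (-0.96) were lower. Among 11 G beta and gamma subunits, Gnb4 was higher (1.44) and Gnb1 (-0.18), Gnb2 (-0.09) and Gng7 (-0.25) were lower.

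Of 5 receptor kinases, which phosphorylate active receptors, Grk4 (0.25) and Grk5 (0.53) were higher and none was lower. Of 2 GoLoco genes tested, Gpsm1 was higher (0.30). The 12 receptors tested split evenly, with 5 called in each direction. Those higher in D1 MSN-like nuclei included Drd3 (1.29), Oprk1 (0.66), Htr2a (0.13) and Chrm1 (0.09), and Drd2 (-5.19), Oprd1 (-4.37), Oprm1, Grm5 and Htr2c (-0.11 to -0.26) were lower. Drd2 and Gng7 were also class markers, and the list genes, unlike the Rgs genes, could take part in clustering, so these differences are partly built in.

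The comparison of heterozygous with wild-type libraries asks whether loss of a Celsr3 copy goes with altered RGS expression. No member passed the test in any population. In all nuclei, 0 of 8 members passed (background 0% of 14399 genes), as among D1 MSN-like nuclei (0.0149% of 13435 genes) and their D2 MSN-like counterparts (0.00785% of 12741 genes), all by limma with an adjusted p under 0.05. At an unadjusted p under 0.05 the members called were also 0 in these 3 populations, where 9.9%, 9.79% and 8.58% of all genes stood. No member had genotype groups that did not overlap, against 4.45% of genes lower and 14.8% higher without overlap in all nuclei. The shares were 5.14% and 11.1% for the D1 class, and 5.48% and 9.02% for the D2 class. In all nuclei, a change in the number of nuclei of a class and a change of level per nucleus cannot be told apart.

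Among the members, Rgs20 came nearest to a change in the D1 MSN-like and D2 MSN-like classes. In D1 MSN-like nuclei the wild-type libraries were at 2.52, 4.79 and 4.14, and the heterozygous ones at 2.46, 2.89 and 3.13. Wild-type replicate 1 lay among the heterozygous libraries, and the other two wild-type libraries lay above all of them. The heterozygotes averaged 74.1% of the wild type (log2 -0.39 ± 0.20, limma adjusted p = 0.565). In D2 MSN-like nuclei the libraries were at 2.22, 4.22 and 3.81, and at 2.35, 2.75 and 2.93 (78.3%, -0.31 ± 0.20, adjusted p = 0.725).

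In the D2 MSN-like class wild-type replicate 1 lay below every heterozygous library. In each of the 6 clusters wild-type replicates 2 and 3 lay above all heterozygous libraries, and wild-type replicate 1 lay among them in clusters 0 and 11 and below them in the other 4. The call turned on wild-type replicate 1. Without it Rgs20 passed among D1 MSN-like nuclei (-0.66, limma adjusted p = 0.0133), as did 219 genes in all. It also passed for the D2 MSN-like class (-0.59, limma adjusted p = 0.0214), as did 125 genes. Without wild-type replicate 2 the Rgs20 difference was smaller, -0.20 for the D1 MSN-like class (limma adjusted p = 0.851) and -0.13 for the D2 MSN-like class (limma adjusted p = 0.950). Over all nuclei wild-type replicate 1 had the fewest genes per nucleus, though not among D1 MSN-like nuclei, and it had the lowest immediate early gene sum; their part in the Rgs20 difference was not tested. The difference of the genotype effect between the classes was -0.08 ± 0.04 for Rgs20 (unadjusted p = 0.0486, limma adjusted p = 0.936). None of the 8 members passed that test (adjusted), where 0.0236% of 12688 genes did, and at an unadjusted p under 0.05 Rgs20 was the only member, where 5.04% of genes were. In astrocyte-like nuclei, where Rgs20 was highest, the change was -0.09 ± 0.12 (adjusted p = 0.932).

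In the D1 MSN-like and D2 MSN-like classes the other members had smaller estimated changes than Rgs20, some of them imprecise. Rgs4 in eccentric MSN-like nuclei, where its estimate was larger, is given further below. Rgs7 was at 98.1% of wild type in the D1 class and 99.1% in the D2 class, with log2 changes of -0.03 ± 0.06 and -0.01 ± 0.06. Rgs4 was at 99.3% and 101.6%, Rgs8 at 106.2% and 111.2%, Rgs14 at 103.2% and 103.8%, and Rgs2 at 106.4% and 106.3%. Rgs6 was at 115.1% and 111.7% (0.21 ± 0.19 and 0.15 ± 0.18), and Rgs10 at 106.6% and 116.2% (0.09 ± 0.14 and 0.21 ± 0.16). The SE of Rgs2 was 0.33 in D1 MSN-like nuclei, so a change of moderate size was not detectable there. When the clusters of the D1 MSN-like class were weighted equally, the Rgs6 change turned to -0.06 (limma adjusted p = 0.939).

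In all nuclei the changes ran from -0.23 ± 0.18 for Rgs20 (1.96, 3.39 and 2.64 in the wild type; 2.18, 2.20 and 2.29 in the heterozygotes) to 0.11 ± 0.19 for Rgs6 and 0.11 ± 0.12 for Rgs7, with adjusted p of 0.593 or more (limma). Rgs4 was at 88.1% of wild type (-0.17 ± 0.12).

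**Figure D5:**
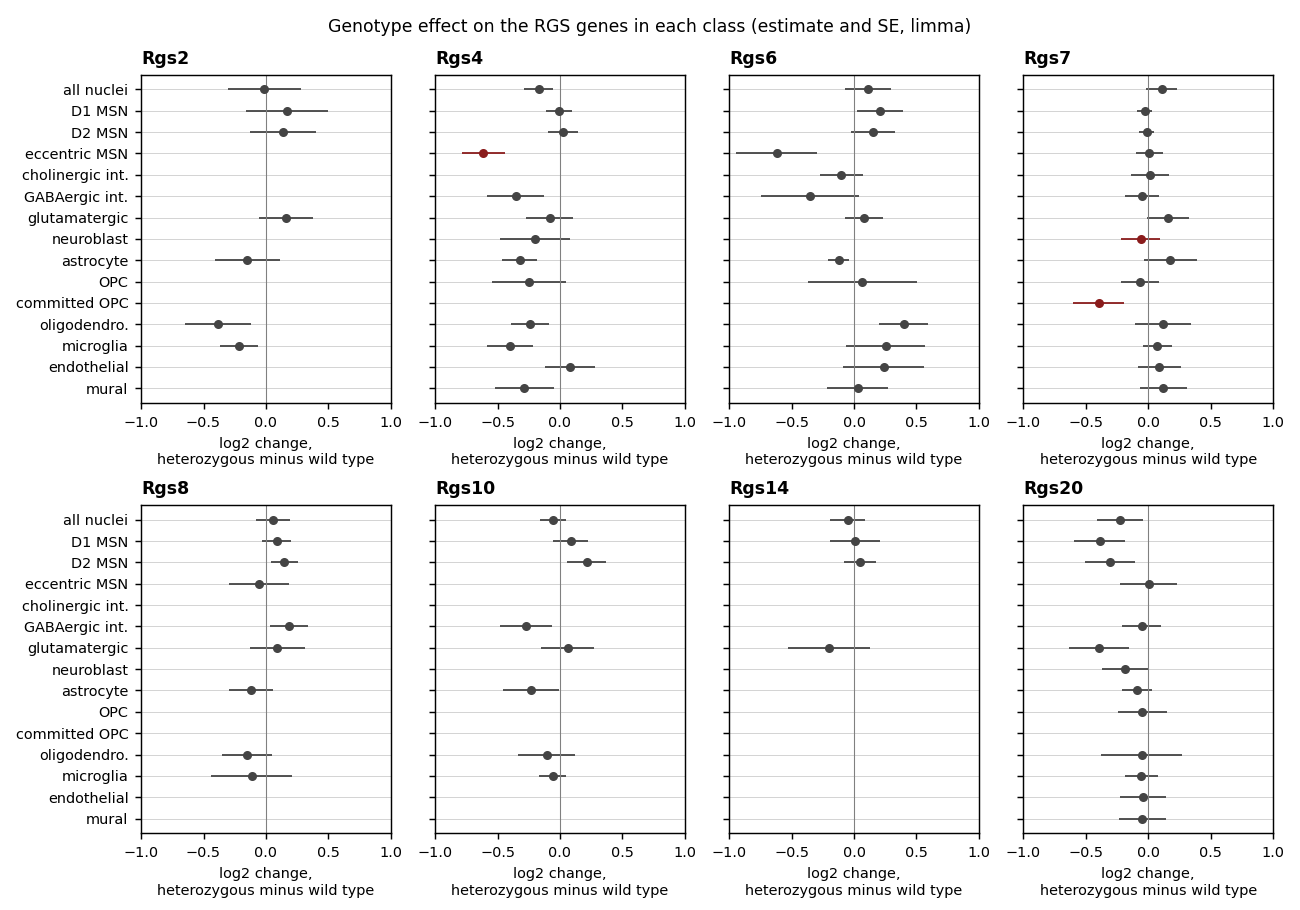
Log2 change, heterozygous minus wild type (x axis), of each RGS gene in all nuclei and in the classes where it was tested (y axis). Points are limma estimates, bars are 1 SE, and red marks populations in which the 3 heterozygous libraries do not overlap with the 3 wild-type ones. The only red points are Rgs4 in eccentric MSN-like nuclei, at -0.62, and Rgs7 in neuroblast-like and committed oligodendrocyte precursor-like nuclei, at -0.06 and -0.40.

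In the other 12 classes, between 1 and 8 members passed the filter on low values, which made 58 tests of a member in a class. None was called, against 0% of all genes. Groups did not overlap in 3 of the 58 (5.17%), all lower in the heterozygotes, where 4.67% of all gene tests in these classes were lower and 6.08% higher without overlap. An unadjusted p under 0.05 was also reached in 3 of the 58 (5.17%), against 5.4% of all gene tests. Both shares are near the background and so are not a result about the RGS genes.

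The values are given for completeness. Rgs4 in eccentric MSN-like nuclei was at 0.327, 0.360 and 0.308 in the wild type and at 0.212, 0.186 and 0.245 in the heterozygotes (log2 -0.62 ± 0.17, limma adjusted p = 0.719). In that class 5.09% of genes were lower without overlap and 5.13% had an unadjusted p under 0.05. The class held 94 to 283 nuclei per library, fewest in heterozygous replicate 3.

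Rgs7 in committed oligodendrocyte precursor-like nuclei, the only member tested there, was at 0.717, 0.849 and 1.03 in the wild type and at 0.667, 0.592 and 0.689 in the heterozygotes (-0.40 ± 0.20, limma adjusted p = 0.850; 5.47% of genes lower without overlap). That class held 30 to 106 nuclei per library, fewest in heterozygous replicate 1. In neuroblast-like nuclei Rgs7 was at 1.04, 1.06 and 1.09 against 1.02, 1.03 and 1.01, a change of -0.06 ± 0.15 (adjusted p = 0.976; 4.64% of genes).

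Rgs4 was lower in the heterozygotes in 10 of the 12 classes tested, and Rgs20 in 11 of 12. The share of all genes that were lower was 35.4% for the D1 MSN-like class, 39.7% for the D2 MSN-like class, 48.3% for the eccentric MSN-like, 43.1% for the astrocyte-like and 50.01% for the microglia-like one. How many of all genes were lower in as many classes was not counted, so the 10 and 11 of 12 are a description only. Some of the classes counted for Rgs20 are ones in which it was within background, and the classes share libraries and drifting RNA and are no replicates of each other. The unadjusted p under 0.05 was reached by Rgs4 each time. Besides the eccentric MSN-like class these were astrocyte-like (-0.32 ± 0.14, limma adjusted p = 0.761; 6.35% of genes at that threshold) and microglia-like nuclei (-0.40 ± 0.18, adjusted p = 0.911; 5.34% of genes), both classes in which Rgs4 lay within the range of the spiny neuron markers. The other 6 members were lower in 1 to 6 and higher in 2 to 8 of the classes in which they were tested, and none reached an unadjusted p under 0.05.

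Of the lists of related genes, 0 genes passed by genotype in all nuclei or in either projection neuron class (limma). The 3 R7 partners tested had a median log2 change of -0.05 among D1 MSN-like nuclei, against 0.05 over all genes. Gpr158 was at 105.7% of wild type there, with groups that did not overlap, and Rgs7bp was at 96.4%. The 11 G alpha subunits had a median of 0.10, with Gnao1 at 97.8% and Gnal at 99.9%. Of the other Rgs genes, Rgs9 was at 104.5%, again without overlap, and Rgs17 at 97.2%.

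In the same class, Gng7 was at 103.5% and Gnb1 at 108.4% of wild type, the latter without overlap, and Grk5 was at 89.7% and Grk3 at 115.1%. Grm5 was at 104.6%. Gpsm1 was at 125.7% (0.30 ± 0.14, limma adjusted p = 0.527) and Gpsm2 at 99.3%. Genes without overlap are read against the 5.14% lower and 11.1% higher of that class. The 10 immediate early genes tested had a median of 0.24 there, against 0.05 over all genes, and 9 were positive. In the D2 MSN-like class their median was also 0.24, against 0.04 over all genes, with 9 of 10 positive. An unadjusted limma p under 0.05 was reached by 1 in the D1 class and 3 in the D2 class. The share of all genes was 9.79% and 8.58%, and none of the list passed after adjustment. Among D1 MSN-like nuclei Egr1 was at 116.6%. Nr4a1 was at 86.0% by the ratio of means but at 0.04 ± 0.60 on the log2 scale, so its scales differ in sign.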

How the data were processed

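The authors deposited 1 table of 24841 genes and 48834 nuclei, whose values were treated as a score: whole-number, depth-corrected UMI values, as read from the totals per nucleus (4523 to 10638, coefficient of variation 10.7%). The original depth is unknown, so no counting intervals were computed. The submitters' processing notes name Cell Ranger, Seurat 4.1 and mm10/GRCm38; strand use, the counting of intronic reads and filters are not given in the sources used here.

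Clusters came from 2000 variable genes without Rgs genes, 30 principal components, 15 neighbours and Leiden clustering at resolution 1 (scanpy 1.11.5, igraph 0.11.9, Python 3.11.15), giving 54 clusters. A cluster took a class name with at least 3 of its markers over 2-fold above all other nuclei, and 40% of the list or 1 marker among its top 10 genes, unless another list fitted as well; spiny neuron classes also needed 3 of 8 shared markers. These limits were set after clusters were seen. Scrublet's own calls marked 0.101% to 0.824% of nuclei per library, under 0.5% in 4 libraries, so nuclei scoring above 0.25, and clusters with over 40% such nuclei, were left out instead.

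Means per nucleus, library and class were transformed as log2(mean + 0.01), which understates changes of low genes, and tested with limma 3.58.1 (R 4.3.3, trended empirical Bayes), with Benjamini-Hochberg adjustment over all genes of a population. Genes below a mean of 0.02, or with values summing to under 30 per library on average, were not tested. Genotype was tested with 3 libraries per group; D1 against D2 on differences within libraries. The tests were tested on simulated data. The members, gene lists and tests were chosen with earlier results of these data known. Named genes were the members, the 3 most similar profiles per member, list genes past the threshold and the 2 highest of each list. A single list gene is not reported here. Class levels were not tested. Gene positions are from GENCODE vM21. Equal cluster weights in the comparison of D1 with D2, and leaving out cluster 14, were chosen after seeing the data. Other alternatives changed the pseudocount (0.001, 0.05), filter, scaling, weights, doublets, clustering and libraries. The D1 against D2 level was not refitted with the pseudocount of 0.001, without the filter, with scaling or with array weights. The difference of the genotype effect was refitted only with the pseudocount of 0.05, with scaling and with libraries left out.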

Additional observations from a re-analysis of the deposited data

How the results depend on the processing

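No member passed by genotype in all nuclei under any alternative, and 0 genes did when single libraries were left out. In the D1 MSN-like class the number of genes called was 2, and it became 5 with size-factor scaling, 429 with array weights, 3 with classes set per nucleus, 4 with clusters weighted equally and 1 without cluster 14. In the D2 MSN-like class it was 1, and became 2 with no filter, with doublets kept or with classes set per nucleus, 3 with clusters weighted equally and 167 with array weights. With libraries left out singly, these counts ran from 1 to 219 and from 0 to 125, with 0 to 1 members, and both highest values came without wild-type replicate 1. The count for the difference of the genotype effect, 3, ran from 1 to 27, highest without heterozygous replicate 3. Of the members, 4 passed between D1 and D2 with any library left out, and the genes called ran from 3753 to 4219. The cause of these moves was not tested. As a paired analysis, the replicate block gave 3 genes in the D1 and 8 in the D2 MSN-like class, with 0 members. Same-numbered libraries correlated at -0.04, 0.15 and -0.07 over all nuclei, at 0.27, 0.02 and 0.19 in the D1 class and at 0.26, 0.04 and 0.17 in the D2 class. Since not every pair was over 0.1 in any of these, and no label names a shared litter or batch, the numbers were not taken to pair the samples.

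None of the genotype effects that changed sign passed the test in either direction. In all nuclei they were Rgs2 at 0.027 and Rgs6 at -0.25 with array weights, and Rgs8 at -0.0068 with size-factor scaling. In the D1 class, Rgs4 was at 0.016 per nucleus and 0.038 with equal clusters, Rgs6 at -0.063 with equal clusters, and Rgs14 at -0.044 with size-factor scaling, -0.099 with equal clusters and -0.0057 without cluster 14. In the D2 class, Rgs4 was at -0.011 with size-factor scaling, -0.073 with array weights and -0.00015 per nucleus, and Rgs14 at -0.00037 with equal clusters. The Rgs10 level difference between D1 and D2 was -0.019 without cluster 14.

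With libraries left out singly, the ranges in all nuclei were -0.32 to 0.32 for Rgs2, -0.059 to 0.19 for Rgs8, -0.10 to 0.029 for Rgs10, -0.042 to 0.32 for Rgs6 and -0.19 to 0.039 for Rgs14. In the D1 class they were -0.21 to 0.52 for Rgs2, -0.017 to 0.18 for Rgs8, -0.10 to 0.055 for Rgs4 and -0.16 to 0.24 for Rgs14. In the D2 class they were -0.14 to 0.44 for Rgs2, -0.090 to 0.086 for Rgs4, -0.037 to 0.0019 for Rgs7 and -0.013 to 0.13 for Rgs14. Rgs20 stayed negative, from -0.43 to -0.035 in all nuclei, -0.66 to -0.20 in the D1 class and -0.59 to -0.13 in the D2 class, each lowest without wild-type replicate 1 and nearest 0 without wild-type replicate 2. For the D1 to D2 level of Rgs10 the range was -0.0092 to 0.060. For the difference of the genotype effect they were -0.070 to 0.099 for Rgs2, -0.055 to 0.014 for Rgs4, -0.029 to 4.6e-05 for Rgs7, -0.030 to 0.14 for Rgs6 and -0.18 to 0.11 for Rgs14. The deposited values keep no original depth, so what depth limits cannot be stated in counts.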
